A study of Mus musculus with 37 samples.

Results

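The genes that load and display peptides on major histocompatibility complex (MHC) molecules were examined in RNA from podocyte ribosomes, collected by translating ribosome affinity purification (TRAP), and in whole kidney. Members were the genes whose symbol begins with H2-, the mouse MHC prefix, and Cd74, B2m, Ciita, Nlrc5, Tap1, Tap2, Tapbp, Psmb8, Psmb9 and Psmb10. There were 44 members among 32108 genes: 24 of class I, 12 of class II, 7 that supply peptides or activate class I, and H2-Ke6, a metabolic enzyme gene of the same region.

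All mice were C57BL/6 by the labels. In the type 2 model, eNOS-/- db/db mice, which lack endothelial nitric oxide synthase and carry the leptin receptor mutation, were compared with eNOS-/- mice, so both arms carry the eNOS deletion. There were 5 diabetic and 5 control libraries at age 3 months, and 3 and 4 at age 6 months. In the type 1 model, diabetic mice were compared with controls labelled as given no STZ (streptozotocin, a toxin of insulin-producing cells), with 5 and 4 libraries at 3 weeks (age 3 months) and 5 and 5 at 24 weeks (age 8 months). That the diabetic mice received STZ is inferred from the label of the controls, and effects of STZ and of diabetes cannot be told apart. The kidney library was total RNA, not TRAP, from 1 eNOS-/- control at 3 months. The deposited tables are named for a podocin Cre, podocin being a podocyte gene. Whether replicates come from different animals is not stated, and the p-values below reflect variation among libraries, whatever its origin.

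Total counts ranged from 6702120 to 37786025 in the 36 TRAP libraries, and the kidney library had 28033680. Genes with a count above 0 numbered 15558 to 16362 in type 1 controls at 3 weeks. In the diabetic libraries of that time they numbered 19940, 19712, 21050, 14320 and 18044. In type 2 controls at 3 months they numbered 19140 to 20606. The part of this in the values of low genes was not tested. Nphs1, which encodes nephrin of the podocyte slit diaphragm, had means of 315 to 1620 CPM (counts scaled by the library total) in the 8 TRAP groups. Nos3, the gene of eNOS, had counts in eNOS-/- libraries (2.08 to 11.6 CPM), and Lepr, the leptin receptor gene, was at 1.11 to 3.22 CPM in db/db libraries. Counts over a whole gene do not check a deletion or mutation in part of it. Sums of 19 macrophage and dendritic cell markers were high in diabetic libraries 4 and 5 of the type 2 model at 3 months. They were also high in type 1 diabetic libraries 1, 2 and 3 at 3 weeks. All type 2 diabetic libraries at 6 months were high too (282.5 to 586.4 CPM). Type 1 diabetic library 3 at 24 weeks had the highest sum of its group (342.4 CPM). It was also the highest of its group for 11 members, in which it stood far from the rest.

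Class I molecules present peptides from inside the cell to CD8 T cells. A heavy chain pairs with the light chain beta-2 microglobulin (B2m), and its peptides are cut by the immunoproteasome (Psmb8, Psmb9, Psmb10), carried into the endoplasmic reticulum by Tap1 and Tap2 and loaded with the help of tapasin (Tapbp). H2-K1 and H2-D1 are the classical heavy chains, and genes of the Q, T and M regions encode mostly nonclassical ones. Class II molecules (H2-Aa, H2-Ab1, H2-Eb1) present peptides taken up from outside to CD4 T cells, are held by the invariant chain Cd74, are loaded through H2-DM and are best known from macrophages, dendritic cells and B cells. Ciita is the master activator of class II genes and Nlrc5 of class I genes, and interferon gamma raises both classes.

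Of the 44 members, 39 lie on chromosome 17, between 33915899 and 37483552 on GRCm38. The promoters of 6 class I genes are shown because these genes changed in different comparisons, described below, while several of their windows share motifs marked here. They are the 250 bases before the start, from RefSeq (GRCm38.p6), where 30 of the 44 members had an entry. Capitals mark GATTCCC (in the kappa B site of class I genes), TTTCACT (in their interferon element), TGACG (the core of a cyclic AMP element) and CCAAT. Both strands were searched, so a motif can appear as its reverse complement. The windows are H2-K1 (minus strand) chr17:34000334-34000583, H2-D1 (plus) chr17:35262844-35263093, H2-Q4 (plus) chr17:35379367-35379616, H2-Q6 (plus) chr17:35424600-35424849, H2-Q7 (plus) chr17:35438905-35439154 and B2m (plus) chr2:122147437-122147686. The H2-D1 window lies inside the gene as the deposited tables place it, since RefSeq starts the gene later.
H2-K1: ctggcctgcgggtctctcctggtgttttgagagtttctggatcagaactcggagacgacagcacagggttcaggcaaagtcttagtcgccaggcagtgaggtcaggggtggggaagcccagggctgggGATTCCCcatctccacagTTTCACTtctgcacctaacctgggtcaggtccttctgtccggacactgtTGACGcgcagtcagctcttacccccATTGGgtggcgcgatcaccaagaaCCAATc
H2-D1: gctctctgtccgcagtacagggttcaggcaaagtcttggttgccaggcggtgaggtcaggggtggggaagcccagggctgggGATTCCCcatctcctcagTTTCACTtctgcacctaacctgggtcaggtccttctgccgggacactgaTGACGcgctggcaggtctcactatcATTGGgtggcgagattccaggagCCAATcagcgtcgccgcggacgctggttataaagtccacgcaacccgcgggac
H2-Q4: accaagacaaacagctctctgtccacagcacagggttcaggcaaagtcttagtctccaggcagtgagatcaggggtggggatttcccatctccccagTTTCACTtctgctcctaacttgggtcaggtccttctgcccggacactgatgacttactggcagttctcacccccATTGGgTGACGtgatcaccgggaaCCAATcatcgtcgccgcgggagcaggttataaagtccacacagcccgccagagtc
H2-Q6: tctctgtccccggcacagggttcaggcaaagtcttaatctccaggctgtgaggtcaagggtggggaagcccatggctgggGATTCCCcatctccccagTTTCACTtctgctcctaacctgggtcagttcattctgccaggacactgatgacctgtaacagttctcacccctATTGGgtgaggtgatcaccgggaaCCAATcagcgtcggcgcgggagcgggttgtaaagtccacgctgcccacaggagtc
H2-Q7: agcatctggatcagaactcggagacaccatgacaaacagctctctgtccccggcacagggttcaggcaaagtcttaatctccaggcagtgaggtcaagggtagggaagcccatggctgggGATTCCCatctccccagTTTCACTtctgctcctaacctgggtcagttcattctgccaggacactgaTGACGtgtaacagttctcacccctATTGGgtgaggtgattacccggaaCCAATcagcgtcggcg
B2m: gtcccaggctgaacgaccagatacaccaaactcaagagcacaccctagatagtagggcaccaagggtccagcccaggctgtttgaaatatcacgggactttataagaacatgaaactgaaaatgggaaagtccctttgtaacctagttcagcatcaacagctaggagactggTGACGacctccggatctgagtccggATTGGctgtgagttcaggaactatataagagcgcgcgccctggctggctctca

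GATTCCC was found in 6 of the 30 members with an entry (H2-D1, H2-K1, H2-M3, H2-Q6, H2-Q7 and Psmb10) and in 2.83% of 32851 promoters. TTTCACT was found in 9 members (H2-D1, H2-K1, H2-M3, H2-Q10, H2-Q4, H2-Q6, H2-Q7, H2-T22 and H2-T3) and in 3.7% of promoters. TGACG was in 12 members and 17.8% of promoters, and CCAAT in 25 members and 33.8%. H2-Q6 and H2-Q7, which fell in the type 2 model, and H2-K1 and H2-D1, which rose in the type 1 model, all hold GATTCCC and TTTCACT. Of the motifs marked, only CCAAT is in all 6 promoters shown, and B2m holds neither GATTCCC nor TTTCACT. A match of letters is a description and shows no binding.

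Many class I genes share stretches of sequence with each other, which bears on their counts below. Of the stretches of 50 bases in the H2-Q6 transcripts, 35% also occurred in transcripts of another gene, most often H2-Q7 (13.9%) and H2-Q4 (12.3%). The share was 36.4% for H2-Q5, 36.4% for H2-Q4, 26.5% for H2-Q7, 53.5% for H2-T22 and 50.4% for H2-T10. It was 12.8% for H2-D1 and 9.63% for H2-K1, and 0 for B2m, Cd74, H2-Ab1 and H2-Eb1. H2-DMb1 (22.7%) and H2-DMb2 (25.9%) share sequence as well. The sources used here give neither the read length nor how reads with several matches were counted, so values of single Q and T genes are uncertain, and class I counts were also summed. They do not give whether counting used strand either. Without strand, reads of a gene and of an overlapping antisense partner cannot be told apart, and 15 members overlap a gene on the opposite strand, among them Psmb9 and Tap1 with each other and B2m with Patl2.

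Levels of different genes are compared in FPKM, which divides by gene length. In type 2 controls at 3 months H2-Q6 was the highest member, at 463.6 ± 130.3 FPKM (SD, n = 5), ahead of B2m at 259.7 ± 93.9. H2-D1 followed at 142.8 ± 35.1, H2-K1 at 70.0 ± 18.1, H2-Q7 at 61.1 ± 12.8 and Cd74 at 56.7 ± 6.28 FPKM. The last 3 lay within each other's spread. In type 1 controls at 3 weeks B2m was at 155.6 ± 42.6, H2-Q6 at 146.5 ± 45.1 and H2-D1 at 125.1 ± 31.1 FPKM (SD, n = 4), also within their spread. In the kidney library B2m was at 188.4, Cd74 at 137.5, H2-Ab1 at 59.6, H2-D1 at 47.8 and H2-Q6 at 8.76 FPKM.

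Type 2 controls at 3 months were set beside the kidney library to see which members were richer in podocyte TRAP RNA. H2-Q6 was at 963, 1249, 1159.7, 548 and 914 CPM in TRAP and at 18.26 CPM in kidney (95% exact Poisson interval 16.72 to 19.92, for counting error only). Its ratio was 51.5 with 0.5 CPM added to each side, rank 44 of 17180 genes. H2-Q7 was 32 times higher in TRAP (260.5 ± 54.4 CPM, SD, n = 5, against 7.67), and H2-Q5, annotated as a polymorphic pseudogene, 13.5 times (37.1 ± 9.21 against 2.28). These 3 genes stood apart from the other members, of which H2-Q4 (3.77 times), H2-Q1 (3.73) and H2-D1 (2.98) came next.

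Several class II genes lay on the other side. Cd74 was 2.42 times, H2-Ab1 2.41 times, H2-DMa 2.33 times, Ciita 2.27 times, H2-Eb1 2.15 times and H2-Aa 1.91 times higher in kidney, and in each case the kidney value was above all 5 TRAP libraries. H2-DMb1 did not follow them, at 9.29 CPM in TRAP and 7.955 in kidney, within the TRAP range, nor did the low H2-Oa and H2-Ob. Of the 35 members tested in the type 2 fit, 3 (8.57%) were at least 4-fold higher in TRAP, against 3.68% of all genes, and 23 (65.7%) were higher at all, against 49.4%. Podocyte markers summed to 551.4 CPM in kidney and to 21780 to 35990 in the TRAP controls. Markers of other cells were lower in these controls than in kidney but not absent. Proximal tubule markers summed to 8214 to 11710 CPM in TRAP and 24490 in kidney. Macrophage and dendritic markers summed to 113.8 to 152.3 and 182.1, and endothelial markers to 249.6 to 317.1 and 513.1. The part of such cells in the TRAP values was not tested. With 1 kidney library, of another kind of RNA, there is no test of these ratios.

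**Figure D1:**
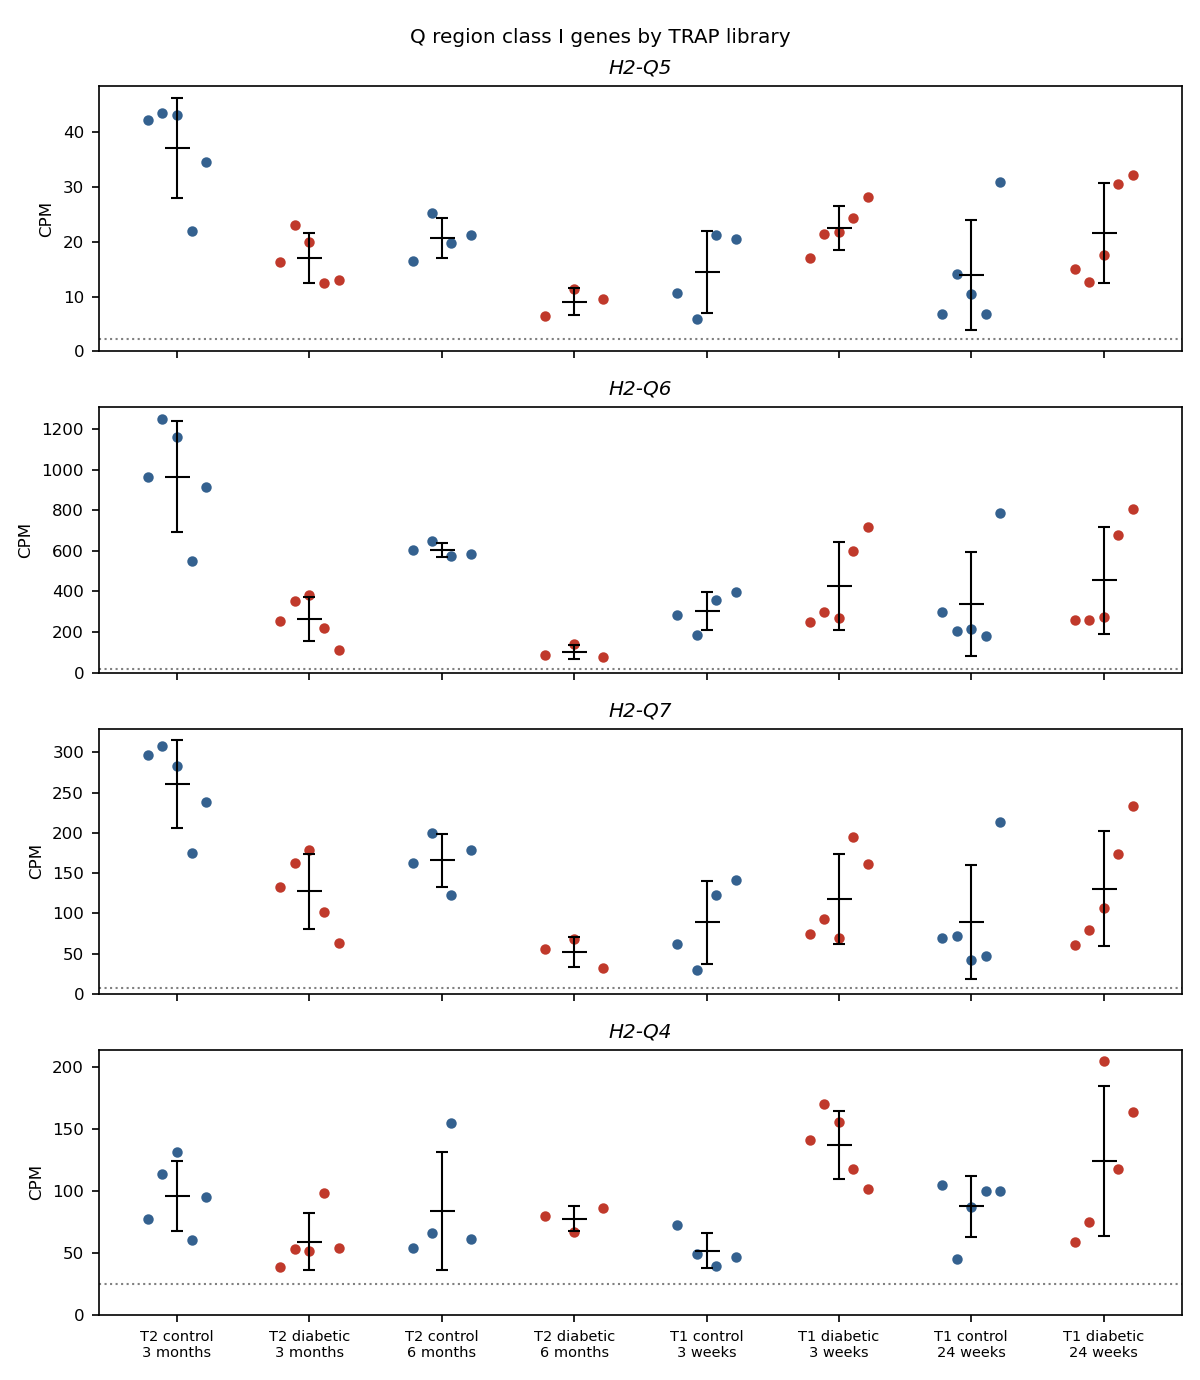
CPM of H2-Q5, H2-Q6, H2-Q7 and H2-Q4 in each TRAP library (points; control and diabetic in separate colours), with the mean and SD of each group and the kidney library as a dotted line. H2-Q6 ran from 548 to 1249 CPM in type 2 controls at 3 months and from 109.6 to 383 in diabetic libraries, while the type 1 groups overlap.

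At 3 months in the type 2 model, 3 class I genes of the Q region were lower in diabetic libraries and no other member was called. A gene is called at an adjusted p under 0.05 in edgeR's quasi-likelihood test. Of 17180 genes 3.99% were called (2.03% higher, 1.96% lower), against 3 of the 35 members tested, all lower. Of these 1 was lower without overlap between the libraries, beside 2.29% of all genes, and 0 were higher without overlap, beside 4.07%.

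H2-Q6, whose controls are given above (548 to 1249 CPM), was at 253, 353, 383, 221 and 109.6 CPM in diabetic libraries. Every diabetic library lay below every control (log2 change -1.96, SE 0.28, edgeR adjusted p = 0.000274). H2-Q5 was at 42.3, 43.6, 43.2, 22.1 and 34.5 CPM in controls and at 16.3, 23.1, 20.0, 12.6 and 13.1 CPM in diabetic libraries. Only diabetic library 2 reached above the lowest control, library 4 (log2 change -1.20, SE 0.22, edgeR adjusted p = 0.00277).

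H2-Q7 was at 297, 308, 283, 175 and 239 CPM in controls and at 133, 163, 178, 101 and 63.0 CPM in diabetic libraries. Diabetic library 3 was just above control library 4 (log2 change -1.11, SE 0.25, edgeR adjusted p = 0.0156). In a fit of all 36 TRAP libraries H2-Q7 was not called (adjusted p = 0.226). The classical and light chain genes were not called either: H2-D1 had a log2 change of -0.53 (edgeR adjusted p = 0.156), H2-K1 of -0.48 (0.249) and B2m of -0.09 (0.917). For H2-Q4 it was -0.79 (adjusted p = 0.132) and for the activator Nlrc5 -1.02 (0.201).

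The counts of 17 class I heavy chain genes were summed as 1 row, which does not depend on how shared reads were divided among the 17. It does depend on whether such reads were dropped or counted more than once. It also depends on reads shared with other genes, such as A930015D03Rik (26.5% of the H2-T22 stretches of 50 bases). H2-Q6 and H2-Q7 are among the 17, so the sum is not separate from them. The sum was 1982, 2562, 2415, 1277 and 1931 CPM in controls and 837, 1062, 1094, 1265 and 673 CPM in diabetic libraries, without overlap, a log2 change of -1.14 (SE 0.18, edgeR adjusted p = 0.000787). In bulk RNA, fewer cells of a type and less RNA per cell cannot be told apart. Of 10 podocyte markers edgeR called 0 at this age and 2 had an unadjusted p under 0.05. Their sum was 21780 to 35990 CPM in controls and 15280 to 28070 in diabetic libraries. Mesangial and smooth muscle markers summed to 127.6 to 155.8 CPM in controls and 188.7 to 869.4 in diabetic libraries, and proximal tubule markers to 8214 to 11710 and 3302 to 7415, both without overlap. The part of these cells in the class I values was not tested.

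Of 11 class II members tested, 10 had a positive log2 change (H2-Ob did not), and edgeR called 0, with 5 at an unadjusted p under 0.05. The share of all genes at that unadjusted level is not given here. The change was 1.26 for Cd74 (edgeR adjusted p = 0.105) and 1.14 for H2-Ab1 (0.182). Cd74 was at 67.3, 82.1, 91.7, 77.1 and 81.8 CPM in controls and at 78.4, 68.8, 114, 558 and 227 CPM in diabetic libraries, so libraries 4 and 5 were high and the others near the controls. The macrophage and dendritic marker sum was 546.3 and 252.6 CPM in the same 2 libraries, against 109.6 to 121.5 in the other 3 and 113.8 to 152.3 in controls. Without libraries 4 and 5, an alternative chosen after seeing the data, Cd74 had a log2 change of 0.04. Then 5 members were called lower: H2-K1 (-0.79), H2-Q10 (-2.40), H2-Q5 (-0.97), H2-Q6 (-1.62) and Tap2 (-0.98), while H2-Q7 had -0.79 (edgeR adjusted p = 0.0772). In this fit 2.49% of 16774 genes were called (1.47% lower). The 2 libraries left out were the highest in Cd74, so its change of 0.04 follows from the choice. Library 4 was also the highest of its group for H2-K1 (249 CPM, the others 96.7 to 122). Neither value is therefore a separate test.

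At 6 months in the type 2 model the Q genes H2-Q5, H2-Q6 and H2-Q7 were lower in diabetic libraries, as was H2-M3, while 4 class II genes and H2-T24 were higher. These are 9 of the 35 members tested, beside 22.9% of 17180 genes (11.2% higher, 11.7% lower), so the share is near the background. Without diabetic library 3 the count was 4, and without control 3 or diabetic library 1 it was 5. On leaving out 1 library at a time H2-Q5, H2-Q6, H2-Q7 and H2-DMa were called each time. Cd74 lost its call without any 1 of the 7 libraries (edgeR adjusted p up to 0.131), H2-M3 (up to 0.116) and H2-DMb2 (up to 0.159) without 6 of them, H2-T24 without 3 and Ciita without 2. Without overlap, 11 members were higher, beside 20.5% of genes, and 4 lower, beside 8.16%.

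H2-Q6 was at 607, 650.2, 574 and 584 CPM in controls and at 85.6, 138 and 74.6 CPM in diabetic libraries (log2 change -2.82, SE 0.36, edgeR adjusted p = 0.000111). H2-Q7 was at 162, 199.8, 122 and 179 CPM in controls and at 55.7, 68.5 and 31.6 CPM in diabetic libraries (log2 change -1.89, SE 0.32, edgeR adjusted p = 0.000854). H2-Q5 was at 16.4, 25.2, 19.8 and 21.3 CPM in controls and at 6.36, 11.3 and 9.55 CPM in diabetic libraries (log2 change -1.42, SE 0.28, edgeR adjusted p = 0.00206). In all 3 genes the diabetic libraries lay below the controls.

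H2-M3, which presents N-formyl peptides, had means of 3.39 CPM in controls and 1.74 in diabetic libraries, without overlap (log2 change -1.19, SE 0.42, edgeR adjusted p = 0.0446). Its call was lost in 11 of 15 alternative settings, limma and the replicate block among them. The sum of the 17 class I genes was 1348, 1519, 1709 and 1370 CPM in controls and 872, 875 and 943 CPM in diabetic libraries (log2 change -0.97, SE 0.22, edgeR adjusted p = 0.00528). The classical genes were not called: H2-K1 had a log2 change of 0.02 (edgeR adjusted p = 0.964) and H2-D1 of -0.30 (0.375). B2m had -0.56 (adjusted p = 0.223). Beside the fall of the Q genes, 9 of 10 podocyte markers were called lower, and their sum was 22870 to 28130 CPM in controls and 3431 to 15840 in diabetic libraries. The part of this in the Q genes was not tested.

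Ciita, the class II activator, was at 4.32, 5.50, 4.54 and 7.09 CPM in controls and at 39.0, 12.3 and 34.9 CPM in diabetic libraries (log2 change 2.18, SE 0.62, edgeR adjusted p = 0.0184). Cd74 was at 84.5, 96.1, 102 and 113 CPM in controls and at 378, 261 and 285 CPM in diabetic libraries (log2 change 1.41, SE 0.48, edgeR adjusted p = 0.0446). Both were higher in every diabetic library. H2-DMa, a subunit of the peptide exchanger H2-DM, was at 3.96, 3.02, 4.54 and 4.99 CPM in controls and at 20.7, 10.4 and 48.9 CPM in diabetic libraries (log2 change 2.42, SE 0.53, edgeR adjusted p = 0.00394). H2-DMb2, another subunit, was at 1.18, 1.54, 3.07 and 2.17 CPM in controls and at 10.8, 6.81 and 15.4 CPM in diabetic libraries (log2 change 2.21, SE 0.78, edgeR adjusted p = 0.0483). H2-DM subunits too were higher in each diabetic library than in any control. Of 15 alternative settings, the call was lost in 9 for Cd74, 9 for H2-DMb2, 3 for Ciita and 0 for H2-DMa.

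H2-T24, a T region class I gene, was at 3.37, 4.91, 3.21 and 3.12 CPM in controls and at 6.09, 6.35 and 17.01 CPM in diabetic libraries, with library 3 the highest (2.22-fold, edgeR adjusted p = 0.0235). Without library 3 its log2 change was 0.56 (edgeR adjusted p = 0.264). The class II chains H2-Aa (log2 change 1.35, edgeR adjusted p = 0.103), H2-Ab1 (1.18, 0.108) and H2-Eb1 (1.70, 0.0589) were not called, although their libraries did not overlap. The macrophage and dendritic marker sum was 137.3 to 171 CPM in controls and 282.5 to 586.4 in diabetic libraries, and 9 of its 19 genes were called higher, such as C1qc (1.98) and Lyz2 (2.42). B cell markers summed to 0.1357 to 0.8867 CPM in controls and 2.156 to 2.732 in diabetic libraries. Mesangial and smooth muscle markers (129.9 to 178.9 against 220.7 to 762.9) and proximal tubule markers (8024 to 10760 against 3136 to 6841) did not overlap either. The part of these cells in the class II values was not tested.

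**Figure D2:**
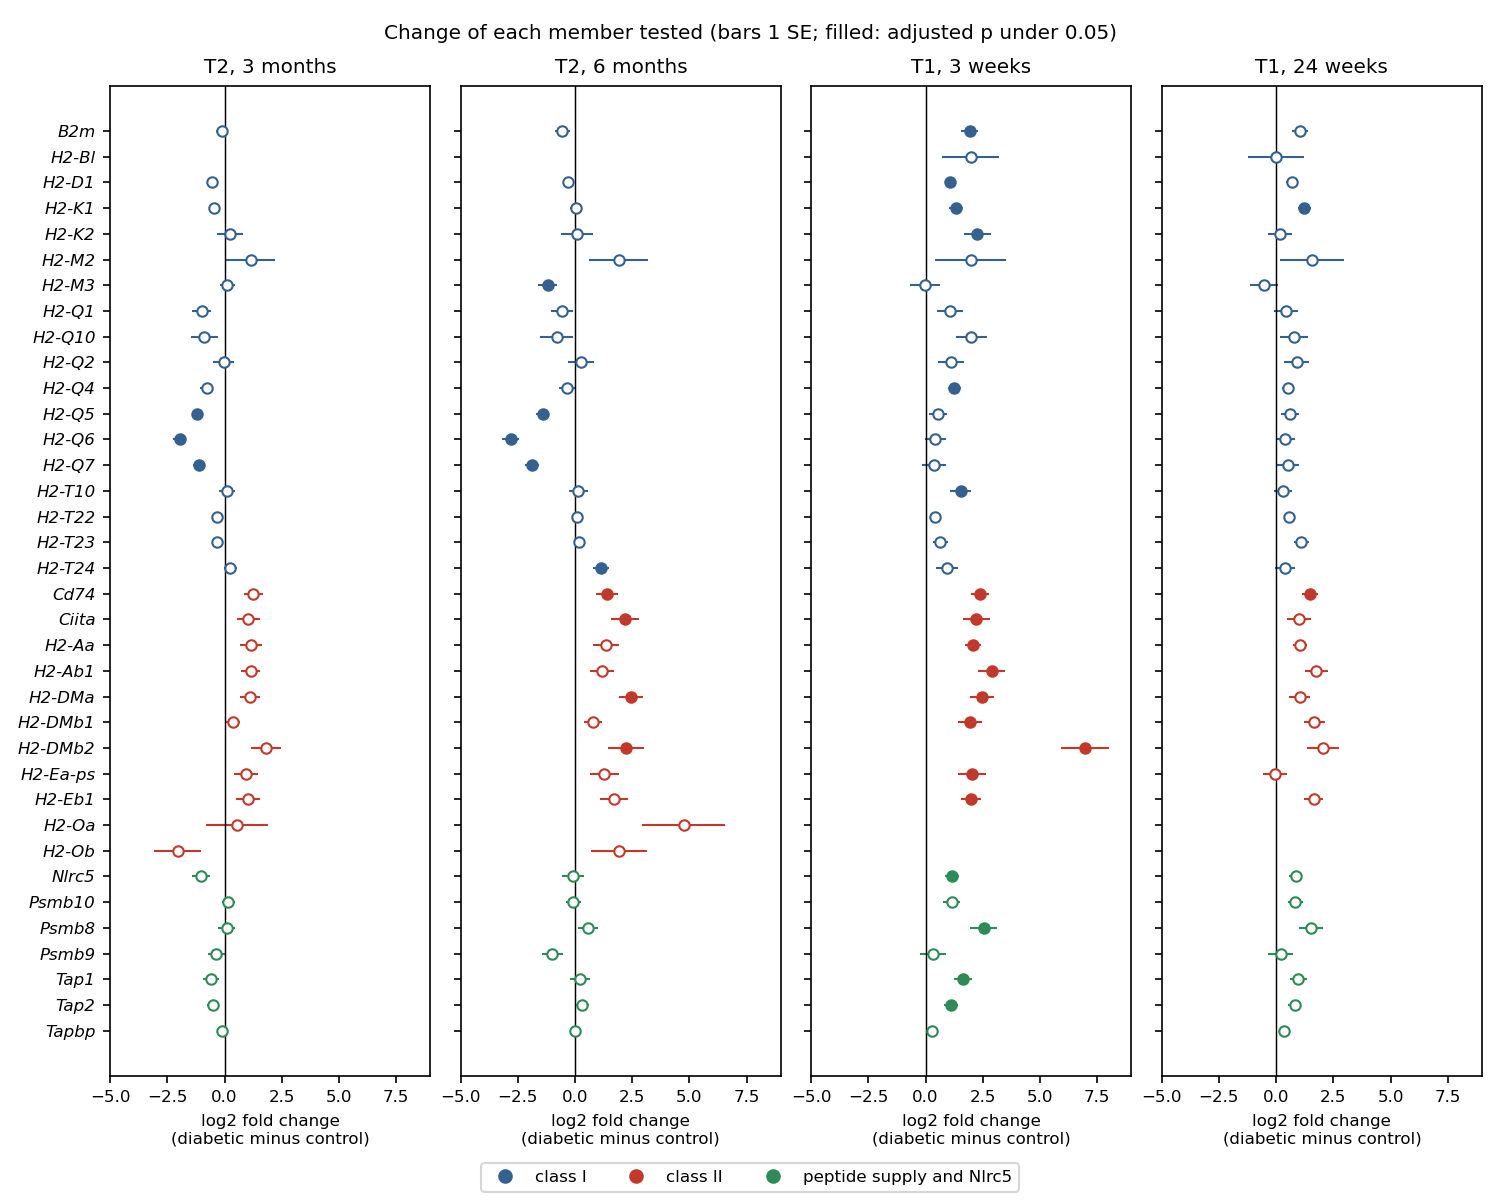
Log2 fold change (diabetic minus control) of each member tested in the 4 diabetic comparisons, with bars of 1 SE; filled points were called by edgeR. H2-Q5, H2-Q6 and H2-Q7 lie left of 0 in both type 2 panels, and 33 of 34 members lie right of 0 in the type 1 model at 3 weeks.

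At 3 weeks in the type 1 model both classes were higher in diabetic libraries. Of 34 members tested 19 were called, all higher, beside 6.5% of 16279 genes (3.78% higher, 2.72% lower). They were the 9 class II members that passed the filter on low counts (of 12), 6 of the 18 class I members that passed (of 24), and 4 of the 7 genes that supply peptides or activate class I. The median log2 change was 1.43 over the members tested and 0.00 over all genes. Without overlap 19 members were higher, beside 5.07% of genes, and 0 lower, beside 2.63%. On leaving out 1 library at a time 11 of the 19 were called each time. The others lost the call without some library: H2-T10 without 7 of 9, Nlrc5 and H2-Ea-ps without 6, H2-K2 and Tap2 without 5, Ciita and H2-DMb1 without 4, and Tap1 without 1.

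B2m was at 139, 104, 109 and 184 CPM in controls and at 585, 659.9, 662, 406 and 484 CPM in diabetic libraries (log2 change 1.93, SE 0.38, edgeR adjusted p = 0.00374). H2-K1 was at 212, 161, 151 and 158 CPM in controls and at 389.8, 542, 555, 465 and 431 CPM in diabetic libraries (log2 change 1.34, SE 0.30, edgeR adjusted p = 0.00835). H2-D1 was at 438, 315, 259 and 279 CPM in controls and at 676, 975, 882, 619.7 and 619.7 CPM in diabetic libraries (log2 change 1.07, SE 0.24, edgeR adjusted p = 0.00908). For the light chain and both classical heavy chains, every diabetic library was above every control.

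H2-Q4, a Q gene, was at 72.5, 48.9, 39.8 and 46.8 CPM in controls and at 141, 170.1, 156, 118 and 102 CPM in diabetic libraries (log2 change 1.25, SE 0.29, edgeR adjusted p = 0.0105), without overlap. H2-K2, annotated as a pseudogene, was at 5.72, 8.16, 4.93 and 1.31 CPM in controls and at 29.6, 41.8, 50.9, 7.40 and 10.12 CPM in diabetic libraries (log2 change 2.27, SE 0.59, edgeR adjusted p = 0.0234). Diabetic library 4 of H2-K2 lay below control 2. H2-T10 was at 2.29, 0.531, 1.64 and 1.83 CPM in controls and at 6.60, 5.29, 6.11, 2.74 and 4.31 CPM in diabetic libraries (log2 change 1.53, SE 0.46, edgeR adjusted p = 0.0454), without overlap.

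The Q genes that fell in the type 2 model were not called here. H2-Q6 was at 284, 183, 356 and 398 CPM in controls and at 251.2, 300.4, 269, 600.0 and 719 CPM in diabetic libraries, so libraries 4 and 5 were high and 1 to 3 lay among the controls (log2 change 0.41, SE 0.46, edgeR adjusted p = 0.679). H2-Q7 had a log2 change of 0.36 (edgeR adjusted p = 0.761) and H2-Q5 of 0.54 (0.498). The sum of the 17 class I genes was 1214, 852, 1043 and 1132 CPM in controls and 1758, 2376, 2210.0, 2179 and 2219 CPM in diabetic libraries, a log2 change of 0.89 (SE 0.27, edgeR adjusted p = 0.0447).

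**Figure D3:**
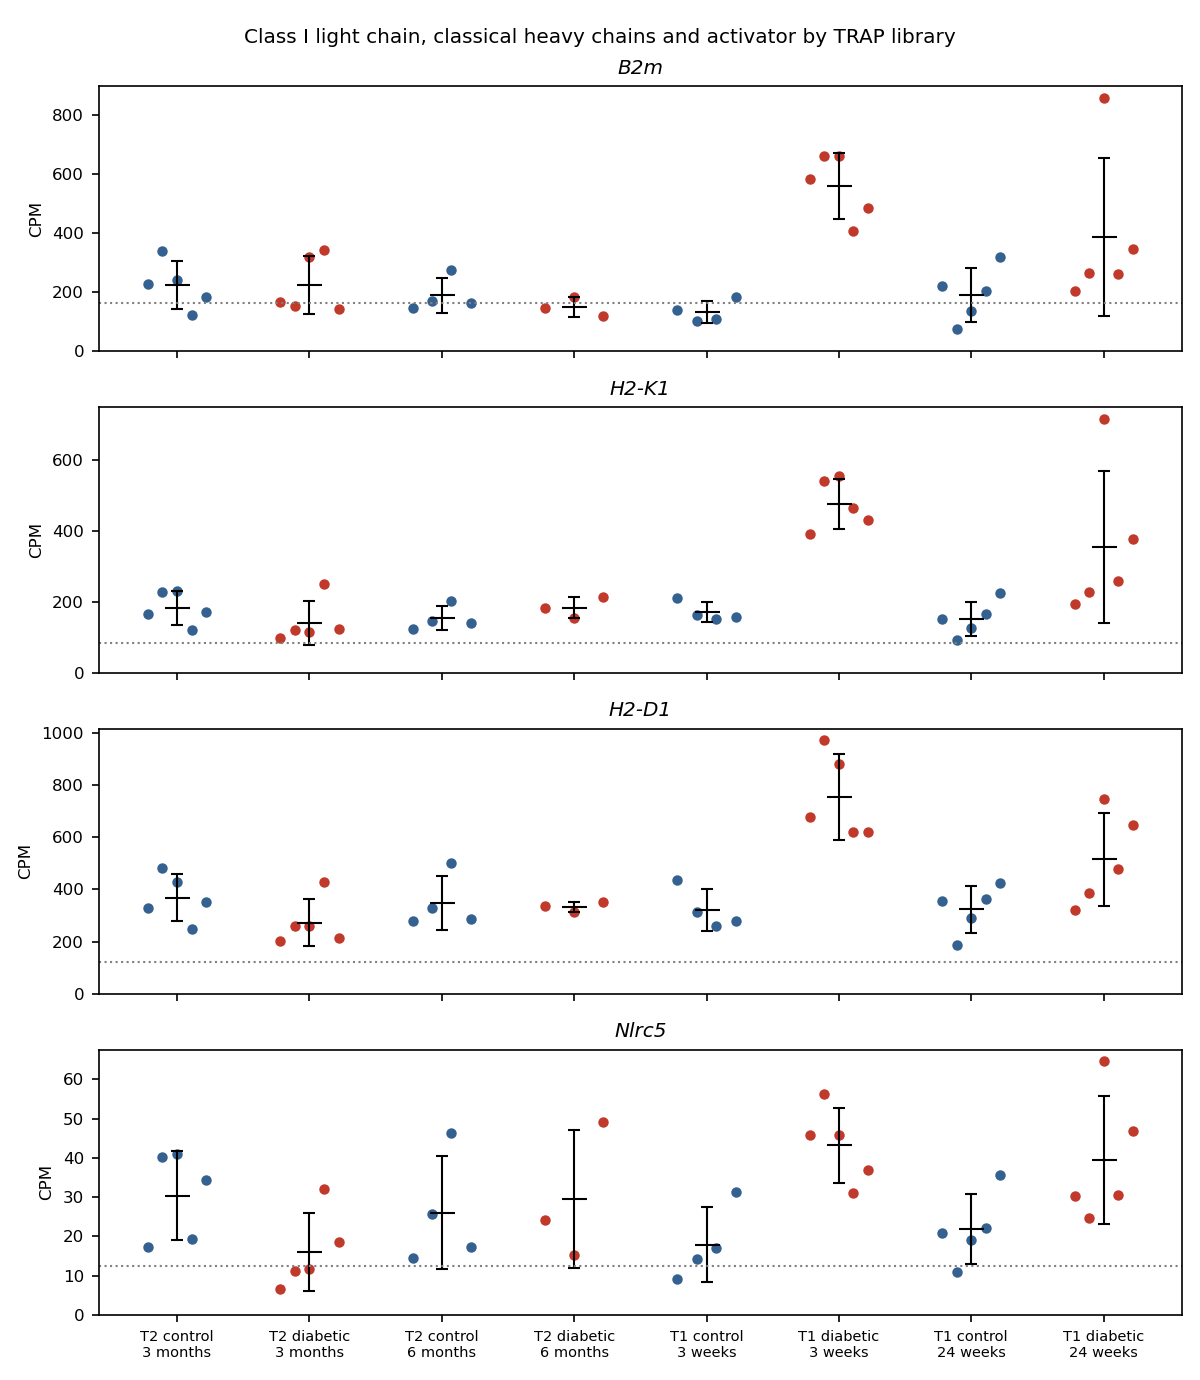
CPM of the light chain B2m, the classical heavy chains H2-K1 and H2-D1 and the activator Nlrc5 in each TRAP library (points; control and diabetic in separate colours), with group mean and SD and the kidney library as a dotted line. The 5 diabetic libraries at 3 weeks lie between 389.8 and 555 CPM for H2-K1, above the controls at 151.3 to 211.6.

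Genes of peptide supply were among those called. Psmb8, an inducible proteasome subunit, was at 5.66, 3.38, 5.93 and 6.75 CPM in controls and at 46.8, 50.7, 45.9, 14.6 and 18.7 CPM in diabetic libraries (log2 change 2.55, SE 0.59, edgeR adjusted p = 0.0114). Tap1 was at 9.90, 11.2, 13.6 and 14.1 CPM in controls and at 44.9, 45.7, 46.9, 42.1 and 27.5 CPM in diabetic libraries (log2 change 1.63, SE 0.41, edgeR adjusted p = 0.0185). Both were higher in every diabetic library, with Psmb8 highest in libraries 1 to 3. Tap2 was at 19.1, 15.0, 11.8 and 15.8 CPM in controls and at 39.1, 42.1, 39.3, 40.1 and 21.3 CPM in diabetic libraries (log2 change 1.10, SE 0.30, edgeR adjusted p = 0.0313).

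Nlrc5 was at 9.09, 14.2, 17.1 and 31.4 CPM in controls and at 45.8, 56.2, 45.8, 31.0 and 37.0 CPM in diabetic libraries (log2 change 1.147, SE 0.31, edgeR adjusted p = 0.029). Its groups met at control 4 and diabetic library 4. Psmb10 (log2 change 1.13, edgeR adjusted p = 0.0659), Psmb9 (0.33, 0.811) and Tapbp (0.29, 0.536) were not called.

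Among class II genes, H2-Ab1 was at 38.3, 58.1, 28.7 and 37.7 CPM in controls and at 478, 462, 431, 156 and 177 CPM in diabetic libraries (log2 change 2.89, SE 0.58, edgeR adjusted p = 0.00536). Cd74 was at 85.4, 109, 74.9 and 75.8 CPM in controls and at 550.3, 566, 576, 348 and 429 CPM in diabetic libraries (log2 change 2.36, SE 0.39, edgeR adjusted p = 0.00111). In both genes diabetic libraries 1 to 3 were the highest and all 5 were above the controls. H2-Aa was at 21.2, 29.9, 24.1 and 16.96 CPM in controls and at 133, 136, 128, 54.1 and 85.9 CPM in diabetic libraries (log2 change 2.06, SE 0.35, edgeR adjusted p = 0.00134). H2-Eb1 was at 19.3, 34.7, 20.8 and 22.1 CPM in controls and at 134, 120.4, 132, 74.3 and 75.9 CPM in diabetic libraries (log2 change 1.99, SE 0.46, edgeR adjusted p = 0.0117). These chains showed the same order of libraries, with 1 to 3 above 4 and 5.

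Ciita was at 2.76, 6.24, 8.85 and 1.31 CPM in controls and at 35.2, 24.4, 33.1, 18.9 and 12.2 CPM in diabetic libraries (log2 change 2.22, SE 0.58, edgeR adjusted p = 0.0244). H2-DMa was at 1.48, 4.25, 4.64 and 1.152 CPM in controls and at 26.8, 20.9, 23.1, 8.84 and 10.3 CPM in diabetic libraries (log2 change 2.48, SE 0.53, edgeR adjusted p = 0.0065). H2-DMb1 was at 3.77, 1.26, 4.43 and 8.06 CPM in controls and at 19.7, 16.6, 16.9, 14.8 and 23.2 CPM in diabetic libraries (log2 change 1.96, SE 0.52, edgeR adjusted p = 0.0266). The activator and both H2-DM subunits did not overlap between groups.

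H2-DMb2 had 6 counts in the 4 controls together, with 2 of them at 0, and 1197 in the 5 diabetic libraries, with means of 0.08203 and 13.63 CPM (edgeR adjusted p = 0.000587). Its fitted log2 change of 6.97 rests on those few control counts. H2-Ea-ps, the E alpha gene that C57BL/6 mice are known not to express as protein, was at 18.3, 10.08, 5.28 and 3.82 CPM in controls and at 78.1, 60.3, 52.9, 7.12 and 22.1 CPM in diabetic libraries (log2 change 2.03, SE 0.60, edgeR adjusted p = 0.0472). Diabetic library 4 of H2-Ea-ps lay within the controls.

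The macrophage and dendritic marker sum was 346.2, 442.7, 487.3, 180.5 and 183.5 CPM in diabetic libraries 1 to 5 and 101 to 144.7 in controls, and 8 of its 19 genes were called higher, such as Mpeg1 (2.20) and Cx3cr1 (3.05). B cell markers summed to 0 to 1.858 CPM in controls and 0.09369 to 3.905 in diabetic libraries. T and NK cell markers summed to 0.5236 to 2.642 CPM in controls and 4.932 to 9.268 in diabetic libraries, and proximal tubule markers to 9190 to 14500 and 3465 to 6471, both without overlap. The part of these cells in the members' values was not tested. Without diabetic libraries 1, 2 and 3, an alternative chosen after seeing the data that leaves 2 diabetic libraries, 1 member (H2-DMb2) was called. The log2 changes were then 1.75 for B2m (edgeR adjusted p = 0.133), 1.40 for H2-K1 (0.116), 2.17 for Cd74 (0.0641), 2.03 for H2-Ab1 (0.249), 1.63 for Psmb8 (0.326), 0.78 for H2-K2 (0.629) and 0.62 for H2-Ea-ps (0.735). In this fit 0.53% of 17720 genes were called (0.254% higher). All 19 members called with the full set kept a positive sign, but that set holds the same controls and the same 2 diabetic libraries. Their signs are therefore no separate test. Both diabetic libraries left were still above all controls in the macrophage and dendritic marker sum.

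**Figure D4:**
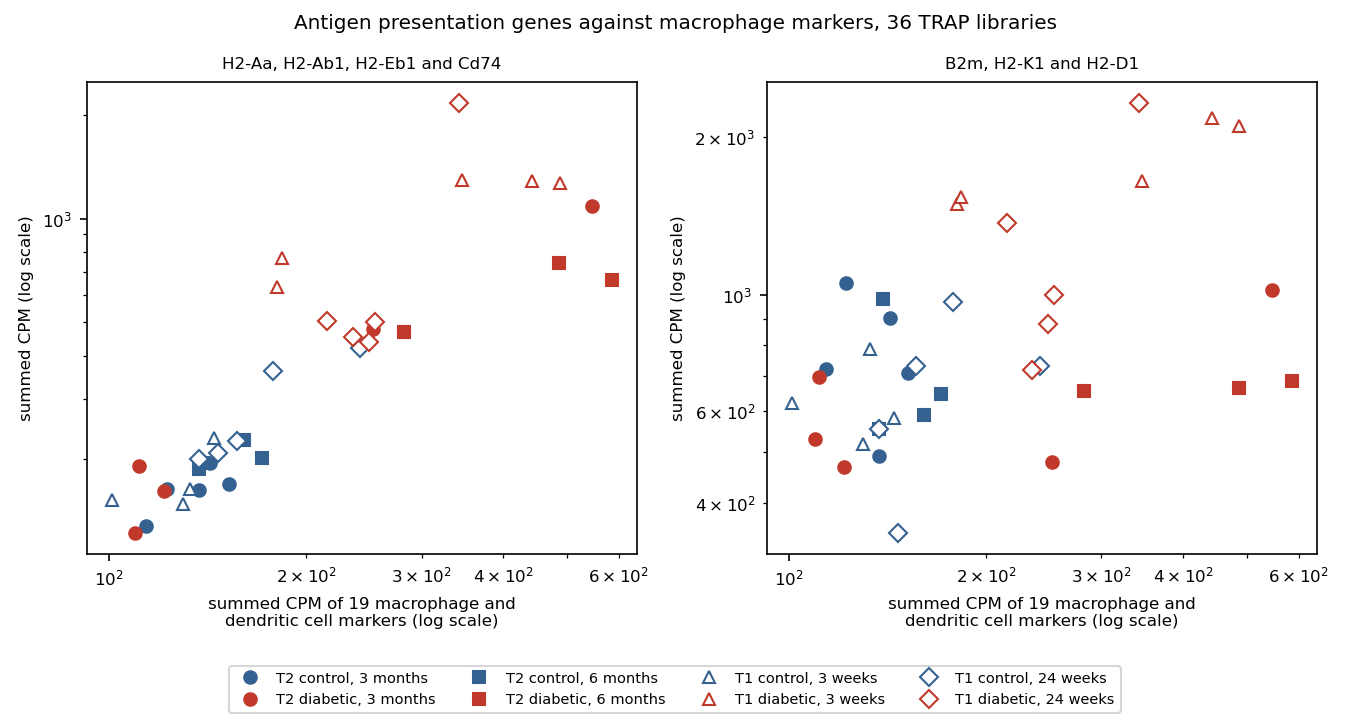
Summed CPM of 4 class II genes (left) and of B2m, H2-K1 and H2-D1 (right) against the summed CPM of 19 macrophage and dendritic cell markers, 1 point per TRAP library, log scales. Diabetic libraries with the highest marker sums, such as type 2 diabetic library 4 at 3 months at 546.3 CPM, lie high on the left. The type 1 diabetic libraries at 3 weeks with marker sums of 180.5 and 183.5 CPM lie above all controls in both panels.

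At 24 weeks in the type 1 model 2 of 34 members were called, both higher, beside 0.897% of 16279 genes (0.448% higher, 0.448% lower). An unadjusted edgeR p under 0.05 was met by 17 of the 34, and the share of all genes meeting it is not given here. These 17 are therefore not read as a shift of the members. H2-K1 was at 151, 91.7, 125, 164 and 224 CPM in controls and at 193, 227, 717, 258 and 377 CPM in diabetic libraries (log2 change 1.24, SE 0.28, edgeR adjusted p = 0.0304). Cd74 was at 129.7, 86.2, 105, 218 and 181 CPM in controls and at 215, 239, 999, 265 and 272 CPM in diabetic libraries (log2 change 1.49, SE 0.35, edgeR adjusted p = 0.0423). The groups overlapped in both genes, and diabetic library 3 was the highest in both. Without it, or without control 1, 2 or 3, 0 members were called.

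Of the 34 members tested 32 had a positive log2 change, with a median of 0.82 against -0.01 over all genes. H2-Ab1 had a log2 change of 1.76 (edgeR adjusted p = 0.119), H2-Eb1 of 1.64 (0.0665), B2m of 1.05 (0.174), Nlrc5 of 0.86 (0.198) and H2-Q6 of 0.41 (0.843). H2-Eb1 was the 1 member higher without overlap, beside 1.76% of genes, and 0 were lower, beside 1.37%. The macrophage and dendritic marker sum was 137.1 to 241.8 CPM in controls and 215.1 to 342.4 in diabetic libraries, highest in library 3 (its part in the members' values was not tested), and edgeR called 0 of its 19 genes, with 5 at an unadjusted p under 0.05.

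**Figure D5:**
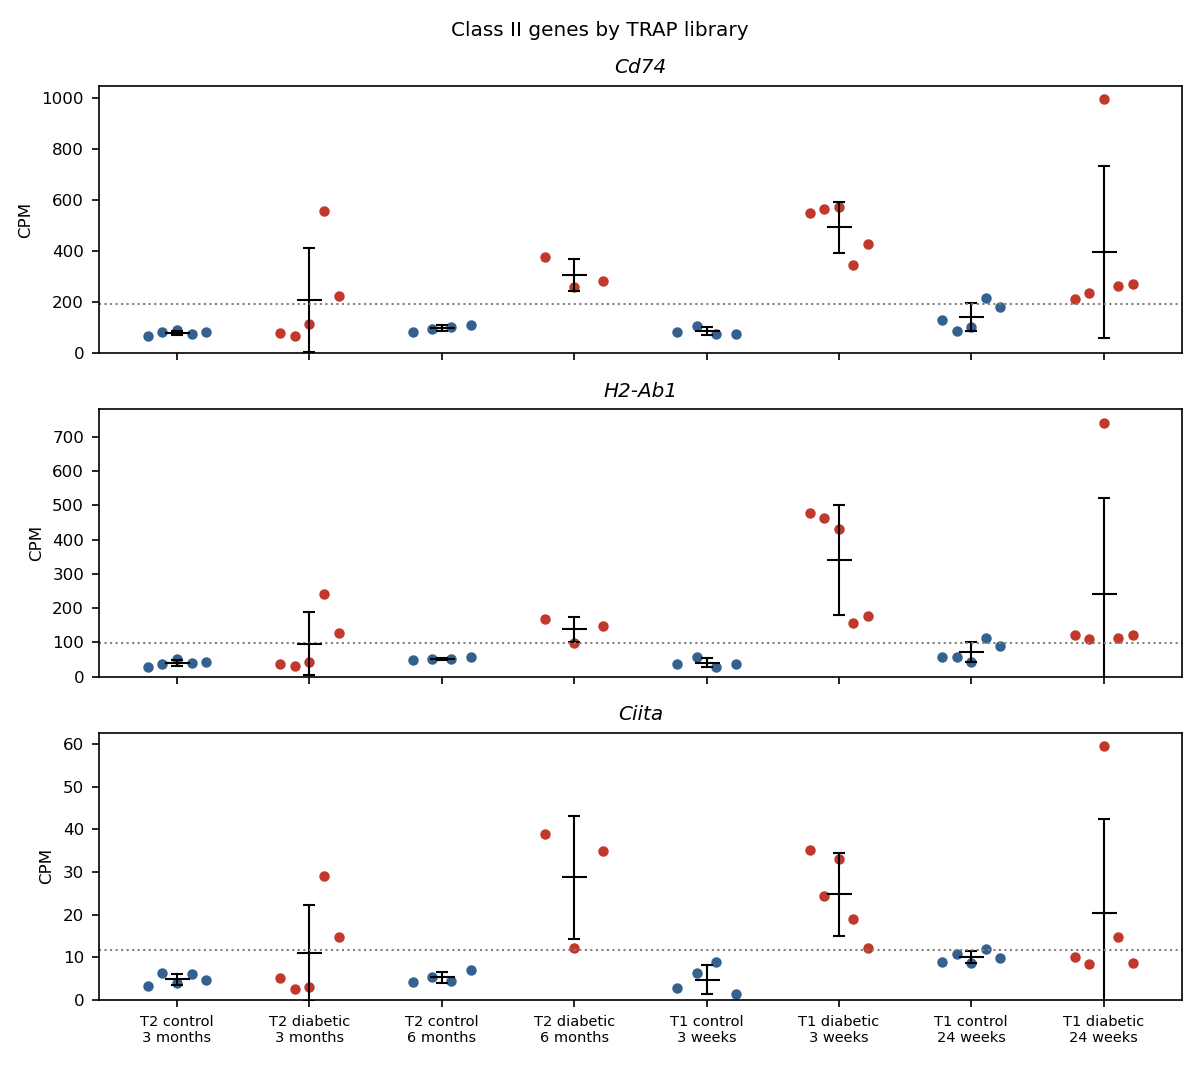
CPM of Cd74, H2-Ab1 and the class II activator Ciita in each TRAP library (points; control and diabetic in separate colours), with group mean and SD and the kidney library as a dotted line. In the type 2 model at 3 months diabetic libraries 4 and 5 stand apart, and at 24 weeks diabetic library 3 reaches 998.8 CPM for Cd74.

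Differences between the comparisons were tested as interactions. Between 3 and 6 months in the type 2 model, and between 3 and 24 weeks in the type 1 model, edgeR called 0 members (0% of all genes), with 2 and 5 members at an unadjusted p under 0.05, and DESeq2 called 0 and 1. The early diabetic effect, type 2 at 3 months minus type 1 at 3 weeks, was lower for 8 of 37 members, beside 0.94% of 18511 genes (0.373% higher, 0.567% lower). They were, with their log2 differences, H2-DMb2 (-5.18), H2-Q6 (-2.39), Nlrc5 (-2.18), H2-Q4 (-2.05), B2m (-2.04), H2-K1 (-1.84), H2-D1 (-1.62) and Tap2 (-1.62), with edgeR adjusted p from 0.0119 to 0.0451. Without the 5 diabetic libraries of these early groups that were high in macrophage markers, chosen after seeing the data, 2 were called. They were H2-DMb2 (-6.53) and H2-K1 (-2.18), beside 0.17% of 19432 genes. The libraries kept enter both fits, so this is no separate test. H2-DMb2 had at most 5 counts in any type 1 control at 3 weeks, so both of its differences rest on few control counts. From the full set, leaving out any 1 of 7 libraries left 3 called. The 7 were type 2 control 2 and 3, type 2 diabetic 1, 2 and 5, type 1 control 2 and type 1 diabetic 2. H2-K1, H2-D1 and H2-Q4 kept the call whichever library was left out. Of 19 libraries left out in turn, Tap2 lost its call without 16, H2-DMb2 without 15, H2-Q6 without 14, Nlrc5 without 13 and B2m without 11.

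The late effect, type 2 at 6 months minus type 1 at 24 weeks, was lower for H2-Q6 (log2 difference -3.24, SE 0.66, edgeR adjusted p = 0.0286), beside 0.438% of genes (0.178% higher, 0.259% lower). It was 0 members without type 2 control 3 or 4, type 2 diabetic 3, type 1 control 1 or 4, or type 1 diabetic 5. The summed class I counts differed early (-2.04, edgeR adjusted p = 0.00199) and late (-1.64, 0.0351). The models differ in genotype, in STZ and, late, in age, and these cannot be told apart.

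The controls of the models, both at age 3 months, were compared because they enter those differences. Type 2 (eNOS-/-) controls were higher than type 1 controls for 5 of 37 members, beside 3.6% of 18511 genes (2.57% higher, 1.03% lower). H2-Q6 had means of 967 and 305 CPM (log2 difference 1.56, SE 0.44, edgeR adjusted p = 0.0432), H2-Q5 of 37.1 and 14.5 (log2 difference 1.25) and H2-T22 of 56.0 and 32.1 (0.69). H2-DMb2 had means of 1.498 and 0.08203 CPM. H2-Ob, which encodes a subunit of the H2-DM inhibitor H2-O, had 0.6044 CPM against 0 in all 4 type 1 controls. H2-DMb2 had at most 5 counts in any of these controls, so both differences rest on values at or near 0. On leaving out 1 control, H2-Ob lost its call without 8 of 9 and H2-DMb2 without 7. Type 1 controls also had fewer genes with a count above 0, and the part of this was not tested. Leaving out any 1 of the 9 control libraries left 0 to 2 members called. Libraries of 7 members did not overlap, all higher, beside 8.95% of genes, and 0 were lower, beside 1.51%.

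Other genes of antigen presentation were read from 6 lists, with log2 changes in parentheses for the genes called. Of 14 genes tested in the list of interferon signals, 4 rose at 6 months in the type 2 model (Ifngr2 1.13, Socs3 2.54, Socs1 2.13, Ifnar1 0.58), where 11.2% of all genes were called higher. Socs1 and Socs3 are inhibitors of cytokine signals, and Ifngr2 and Ifnar1 are interferon receptor chains. At 3 weeks in the type 1 model 2 rose, Stat2 (1.07) and Irf1 (1.04), beside 3.78% of genes, and at 24 weeks edgeR called 0, with 3 at an unadjusted p under 0.05.

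Of 8 genes of class II processing and regulation, 1 rose and 1 fell at 3 months, Lgmn (0.58) and the cathepsin Ctsl (-0.67). The shares of all genes called higher and lower were 2.03% and 1.96% at 3 months and 11.2% and 11.7% at 6 months. At 3 weeks they were 3.78% and 2.72%. At 6 months Ctss, the cathepsin that trims the invariant chain, rose (2.33, edgeR adjusted p = 0.0383) with Lgmn (0.47), and Ctsl fell (-0.99). Ctss (2.59, edgeR adjusted p = 0.000466) and Lgmn (0.90) rose at 3 weeks, and edgeR called 0 at 24 weeks, with 3 at an unadjusted p under 0.05. Of 14 genes of peptide loading and trimming, Lap3 fell at 3 months (-0.80) and 6 months (-0.89), Pdia3 (-1.07) and Calr (-0.84), both of the loading complex, fell at 6 months, and Npepps rose at 6 months (0.40) and 3 weeks (0.57).

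Of the costimulation and checkpoint ligands, Cd276 rose at 6 months (4.33) and 3 weeks (4.28), Icosl at 6 months (1.30) and Cd274, which restrains T cells, at 3 weeks (1.66). Among MHC-like genes outside the H2- symbols, Azgp1 fell in all 4 comparisons (-1.74, -3.48, -1.61 and -2.06), and at 3 weeks Fcgrt, the neonatal Fc receptor, fell (-0.92) and Mr1, which presents vitamin metabolites, rose (1.19). Of 3 standard catalytic proteasome subunits, Psmb7 fell at 6 months (-0.90). Beside these lists, 3.99% of all genes were called at 3 months, 22.9% at 6 months, 6.5% at 3 weeks and 0.897% at 24 weeks.

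Of the 44 members, 35 passed the filter on low counts in the type 2 fit and 34 in the type 1 fit, 33 in both, and 8 in neither. Those 8, H2-Eb2, H2-Ke6, H2-M10.1, H2-M10.2, H2-M5, H2-M6-ps, H2-Q3 and H2-T3, reached at most 23 counts in any TRAP library, and H2-M10.1 had none. Of the stretches of 50 bases in H2-Ke6, 70.5% also occur in Gm20427, which overlaps it on the same strand. H2-T3 passed in the fit of all TRAP libraries, where it was not called early, late or between controls (edgeR adjusted p = 0.0913, 0.549 and 0.331). The other 7 were not tested.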

How the data were processed

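The authors deposited raw read counts per gene and FPKM (counts scaled by depth and gene length) for 37 libraries, per the file headers. The submitters' processing notes list FastQC, STAR, featureCounts 1.15.2 and cutadapt 1.16, and the build mm9, whereas the coordinates in the files are those of GRCm38.

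Counts were tested with edgeR 4.0.16 in R 4.3.3 (TMM scaling, default filter on low counts, robust quasi-likelihood test, Benjamini-Hochberg adjustment at 0.05) in fits of the 17 type 2 libraries (17180 genes), the 19 type 1 libraries (16279) and all 36 TRAP libraries (18511). Ratios to kidney use CPM plus 0.5. Counts at an unadjusted p under 0.05 stand without the share of all genes at that level, which is not given here. No pair of replicates was a duplicate (lowest chi-square per gene 14.1 over 65 pairs).

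Members and lists were chosen with earlier results of these data known. Named were a fixed set of members, every other member called, and in each list at most 4 genes of lowest adjusted p per comparison. H2-Q1 and H2-Q10, and the macrophage examples where not among those 4, were added after their values were seen. A gene of the interferon list is not reported here.

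Alternatives were DESeq2 1.42.0, limma 3.58.1 on log2(FPKM + 0.1), other filters and size factors, a replicate block, summed class I counts and leaving out libraries. The tests were tried on simulated data, where DESeq2 called more unchanged genes than its nominal rate. Plots used matplotlib 3.10.9.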

Additional observations from a re-analysis of the deposited data

Results flagged for a closer look

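A library was listed where it stood far from the rest of its group by Dixon's test at the 95% level, which chance alone gives in about 1 in 20 groups. There were 36 such cases among 217 pairs of member and group, over 7 groups. Type 2 diabetic libraries at 6 months (n = 3) were too few for this test and were not examined. The type 1 diabetic library 3 at 24 weeks was the highest for 11 members: B2m (859 CPM), Cd74 (999), H2-Ab1 (741), H2-Eb1 (281), H2-Aa (148), Psmb10 (68.3), Ciita (59.6), Psmb8 (56.6), H2-DMb1 (51.1), H2-DMb2 (44.8) and H2-DMa (30.9). Its macrophage and dendritic marker sum was also the highest of its group, at 342.4 CPM. The type 2 diabetic library 4 at 3 months was the highest for 10: H2-D1 (427 CPM), H2-K1 (249), Tapbp (230.0), H2-Aa (157), H2-Q4 (98.6), H2-T23 (59.6), H2-Ea-ps (39.4), H2-DMa (22.1), H2-DMb1 (19.5) and H2-DMb2 (18.6). Its marker sum was 546.3 CPM. The part of other cells in these values was not tested.

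Type 1 control 5 at 24 weeks was the highest for H2-Q6 (788 CPM) and H2-Q7 (214), and type 2 control 3 at 6 months for H2-Q4 (155) and Tap1 (36.1). Type 2 control 2 at 6 months was the highest for H2-T24 (4.91 CPM). At 3 weeks in the type 1 model, control 1 was the highest for H2-K1 (212 CPM), control 4 for Psmb9 (11.4), and diabetic library 5 the lowest for Tap1 (27.5) and Tap2 (21.3). H2-Ke6, with at most 14 counts, had a highest library in 6 groups: type 1 control 4 (0.733 CPM) and diabetic 3 (0.316) at 3 weeks, type 1 diabetic 4 at 24 weeks (0.417), type 2 control 4 (0.0397) and diabetic 3 (0.0529) at 3 months, and type 2 control 4 at 6 months (0.17).

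The diabetic effect differed between the models, by edgeR's test of the difference, for 8 members early and 1 late. The early log2 differences, type 2 minus type 1, were -2.04 for B2m, -1.62 for H2-D1, -5.18 for H2-DMb2, -1.84 for H2-K1, -2.05 for H2-Q4, -2.39 for H2-Q6, -2.18 for Nlrc5 and -1.62 for Tap2. The early difference for H2-DMb2 rests on few counts in type 1 controls. The late difference was -3.24 for H2-Q6.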

How the results depend on the processing

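Single members were scored under the alternatives only where the main fit called them. Of 889 such values, 629 kept their direction and call, 260 kept the direction and lost the call, and 0 reversed. The members were picked by their calls in these same libraries, so the lack of reversals is no separate test. Counts of members called moved as follows. Under DESeq2 they were 5 (from 3) for type 2 at 3 months, 8 (from 2) for type 1 at 24 weeks, 1 (from 0) for type 1 at 24 weeks minus 3 weeks and 3 (from 1) for the late difference. Without a filter on low counts they were 5 (from 9) for type 2 at 6 months, 0 for type 1 at 24 weeks, 0 for the late difference, 3 (from 8) for the early difference and 0 (from 5) between controls, and with a mean CPM of at least 1 the last was 3. With limma on log2(FPKM + 0.1), type 1 at 24 weeks gave 0. With the replicate block the counts were 5 for type 2 at 6 months, 0 for type 1 at 24 weeks and 1 between controls. The labels do not say whether replicate numbers pair the samples. Over 17 pairs of one number the deviations correlated at -0.17 to 0.32, and 6 were over 0.1, which cannot settle whether they do. Leaving out the libraries high in macrophage markers at 3 months and 3 weeks was an alternative chosen after seeing the data. The counts were then 5 for type 2 at 3 months, 1 (from 19) for type 1 at 3 weeks and 2 for the early difference. Leaving out 1 library gave 3 to 4 for type 2 at 3 months, 4 to 7 at 6 months, 13 to 19 for type 1 at 3 weeks, 0 to 3 at 24 weeks, 0 to 1 for type 1 at 24 weeks minus 3 weeks, 0 to 3 late, 3 to 10 early, 0 to 2 between controls, and 3 to 5 members at least 4-fold above kidney. The cause of these moves was not tested. Depth limits the 8 members with at most 23 counts in a library.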
